A study of Mus musculus with 27 samples.

Results

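Total mRNA was compared between neural stem cells (NSC) sorted from the subventricular zone and neurons (Neuron) sorted from the olfactory bulb, the beginning and the end of adult neurogenesis in the mouse forebrain. The comparison takes 6 of the 27 libraries of the series, 3 per group, chosen by their titles, and describes the 17592 of 45195 genes that passed a filter on low counts. Per the labels, all libraries came from male mice of 8 to 12 weeks on a C57BL/6 background that carried an eYFP reporter, a tamoxifen-inducible Cre (CreER) and RiboTag, an allele that tags the ribosomal protein Rpl22 with HA in recombined cells, and that received tamoxifen by gavage at 200 mg per kg. Per the labels' protocol each library holds polyadenylated RNA of 200 to 500 live eYFP-positive cells from the tissue of 1 to 2 mice, amplified with Smart-seq2, a protocol that copies full-length cDNA from few cells. The stem cell libraries are described as TiCRY (Tlx-CreER-Rpl22.HA-eYFP), in which the promoter of Tlx, also called Nr2e1, drives the Cre. The descriptions of the Neuron libraries hold an abbreviation that the labels do not spell out, and end in the word total where those of the stem cells end in YFP, so the labels do not settle whether the Neuron libraries were sorted as the protocol given for them says. The other line of the study is DiCRY (Dcx-CreER-Rpl22.HA-eYFP). Stage and tissue of origin cannot be told apart here, nor from the Cre line where that differed, and the cells are defined by what recombined and was still eYFP-positive, not by a surface marker of their stage.

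Adult neurogenesis in the rodent forebrain starts with astrocyte-like stem cells in the wall of the lateral ventricle. These cells divide, give rise to neuroblasts that migrate to the olfactory bulb, and mature there into granule and periglomerular interneurons, most of which use GABA and some of which also make dopamine. The path involves leaving the cell cycle, building axons, dendrites and synapses, and shifting metabolism and protein synthesis from growth to maintenance. In the sections below a gene rose or fell where its adjusted p (edgeR's quasi-likelihood F test, Benjamini-Hochberg over all genes tested) was under 0.05, changes are log2 fold changes of Neuron minus NSC ± SE, and levels are CPM, counts relative to the library's total scaled with TMM.

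The 6 libraries held 5225929 to 15005452 counts. Spearman correlations between replicates were 0.925 to 0.934 in NSC and 0.857 to 0.873 in Neuron. Reads on genes overlapping ribosomal RNA made up 0.727% to 12.5% of the counts in NSC, with NSC 2 highest, and 4.12% to 9.93% in Neuron. All 3 Neuron libraries and NSC 2 share one sequencing index, and NSC 1 and NSC 3 share another. The labels do not say that replicates were separate animals in every case, so p-values measure the spread between libraries. That spread was estimated over the 12 total mRNA libraries of the 4 stages, which include the neuroblasts. The low-count filter ran over the same 12 libraries, so a gene could pass it through its level in the neuroblasts.

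The markers went with the labels. Nr2e1 (ENSMUSG00000019803, GRCm38.p6 chromosome 10, 42561963 to 42583590), a nuclear receptor needed to keep the adult stem cell pool, was at 222, 276 and 334 CPM in NSC and at 2.75, 6.73 and 3.72 CPM in Neuron (-5.97 ± 0.87, adjusted p = 0.000614). Sox2 (ENSMUSG00000074637, chromosome 3, 34649995 to 34652461), a stem cell transcription factor, was at 84.5, 110 and 95.5 CPM in NSC and at 26.2, 14.3 and 15.6 CPM in Neuron (-2.36 ± 0.29, adjusted p = 0.000218). Both were lower in every Neuron library than in any stem cell library. Syt1 (ENSMUSG00000035864, chromosome 10, 108497650 to 109010980), the calcium sensor of synaptic vesicle release, was at 145, 15.4 and 155 CPM in NSC and at 1356, 1509 and 1752 CPM in Neuron (3.87 ± 0.67, adjusted p = 0.00177). Rbfox3 (ENSMUSG00000025576, chromosome 11, 118489760 to 118911597), the splicing factor known as NeuN, was at 17.8, 8.31 and 17.5 CPM in NSC and at 103, 106 and 117 CPM in Neuron (2.91 ± 0.47, adjusted p = 0.00115). The groups did not overlap for either neuronal marker, and NSC 2 was the lowest stem cell library for both. Dcx, a microtubule-binding protein of migrating neuroblasts whose promoter drives the other Cre, was at 194, 146 and 143 CPM in NSC and at 210, 141 and 202 CPM in Neuron, so the groups overlapped (0.20 ± 0.26, adjusted p = 0.623). In the neuroblasts between both ends Dcx was at 917 to 1583 CPM in all 6 libraries. Nr2e1 also drives the Cre that chose the stem cells, so its change is not independent of how the cells were labelled.

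**Figure D1:**
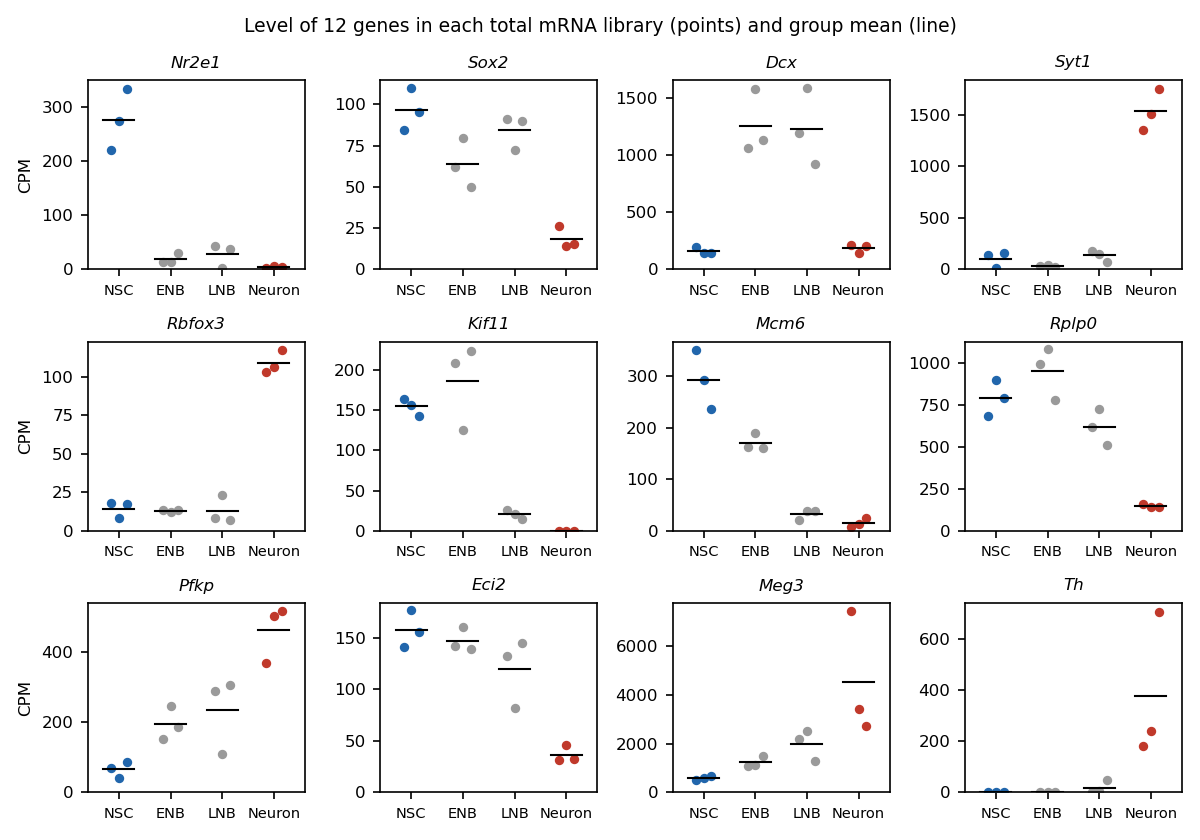
Levels in CPM (vertical axes, linear, each panel with its own scale) of 12 genes in the total mRNA libraries of the 4 stages (horizontal axes: NSC, early neuroblasts ENB, late neuroblasts LNB, Neuron); points are libraries and lines are group means of 3. Nr2e1 is at 222 to 334 CPM in NSC and below 10 CPM in Neuron, Syt1 stands at 1356 to 1752 CPM in Neuron, and Dcx is at 917 to 1583 CPM in both neuroblast stages and at 141 to 210 CPM at the ends.

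Of the 17592 genes 4175 passed the threshold (23.7%): 1930 were higher in Neuron (11.0%) and 2245 lower (12.8%). The genes that rose had a median change of 2.40 and those that fell one of -1.97. The median over all genes was -0.06 with TMM and 0.06 with the RLE scaling of DESeq2, so a shift of about this size depends on the scaling. By RefSeq annotation 1697 of the genes that rose and 1884 of those that fell code for proteins, 86 and 115 are long noncoding RNAs, and 5 and 55 are pseudogenes. In 206 of the genes that fell no Neuron library had a count, and in 90 of those that rose no stem cell library had one. Each Neuron library had counts for fewer genes (17306 to 19228) than any stem cell library (20512 to 21152). Depth was 5225929 to 9277388 counts in Neuron and 8189474 to 15005452 counts in NSC. The part of depth and detection in the difference between 206 and 90 was not tested. Groups did not overlap in 8192 genes, 46.6% of those tested, against which statements that groups do not overlap are to be read. Where no gene of a list is said to have moved one way in edgeR, DESeq2 called 0 such genes too and 0 had an unadjusted p under 0.05, unless other values are given. Without NSC 2 the number past the threshold was 2605 and without NSC 1 it was 2680.

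**Figure D2:**
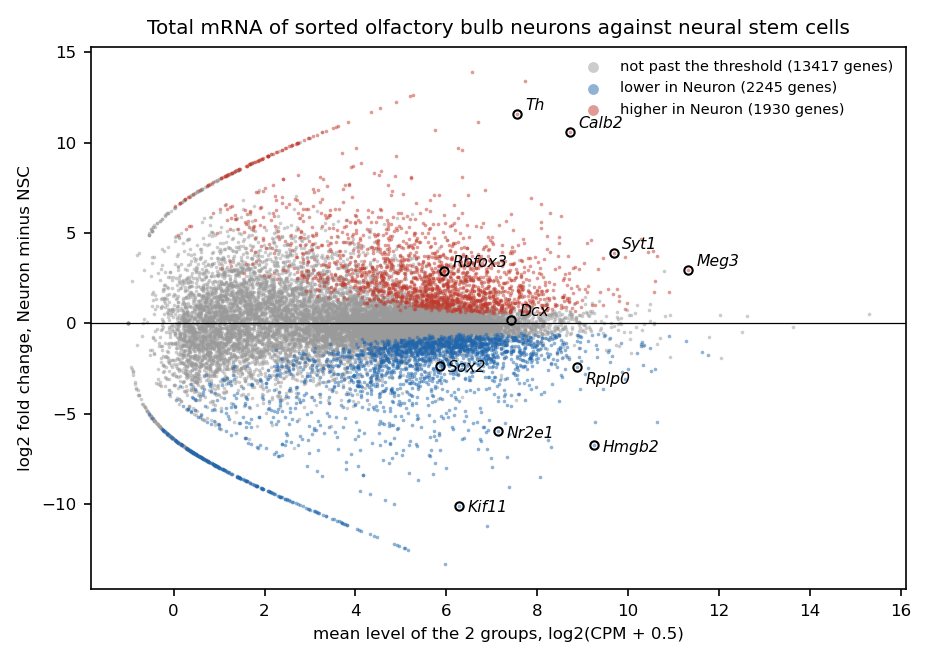
Change between Neuron and NSC in total mRNA (vertical axis, log2) against the mean level of both groups (horizontal axis, log2(CPM + 0.5)), with 1 point for each of the 17592 genes; red genes rose, blue genes fell and grey genes did not pass the threshold. Kif11 at -10.09 and Hmgb2 at -6.75 lie among the largest falls, Th and Calb2 among the largest rises, and Dcx lies near 0; the curved edges at both sides are genes without counts in one group, whose plotted change is no bound.

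**Figure D3:**
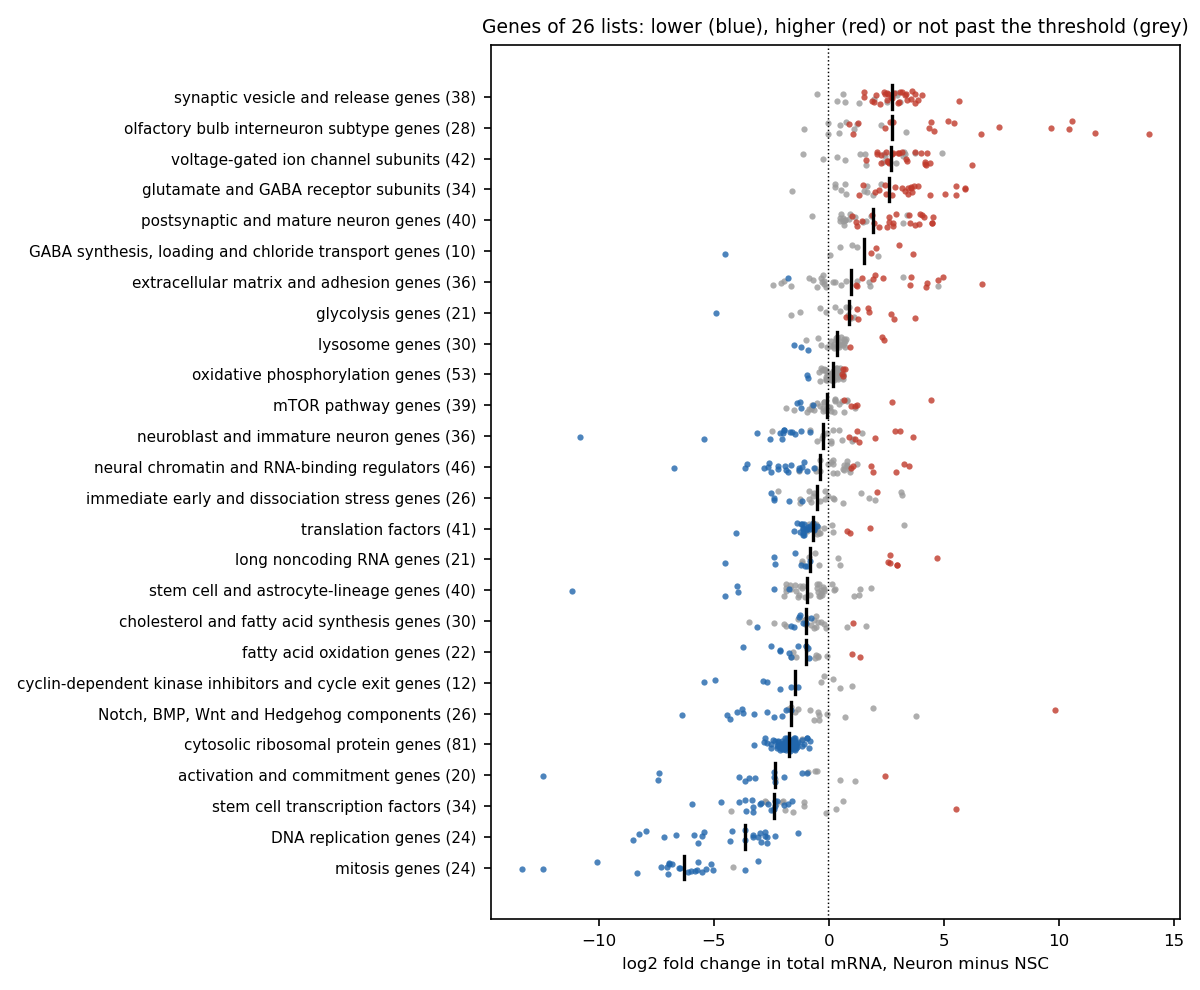
Change in total mRNA (horizontal axis, log2, Neuron minus NSC) of each gene in 26 lists, with the number of genes tested in brackets; red rose, blue fell, grey did not pass the threshold, black bars are list medians and the dotted line is the median of all genes at -0.06. Mitosis, replication and ribosomal protein genes lie wholly below 0, and most synaptic vesicle, receptor and channel genes lie above 2.

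Many transcription factors of stem cells fell, as did several receptors and ligands that keep stem cells in their niche. Among the 34 transcription factors of stem cells 19 fell and 1 rose, with a median of -2.38. Nfia, which specifies astrocyte-like identity and quiescence, was at 797, 592 and 612 CPM in NSC and at 115, 84.7 and 54.4 CPM in Neuron (-2.98 ± 0.29, adjusted p = 6.4e-05). Its relative Nfix (-2.40 ± 0.30) and the Hippo pathway factor Tead1 (-2.94 ± 0.31) moved likewise, as did Id4 (-2.50 ± 0.34), an inhibitor of proneural factors. All 4 were lower in every Neuron library. The gene that rose was Zic1, a transcription factor of bulb periglomerular cells, at 0, 5.49 and 0 CPM in NSC and at 112, 86.1 and 63.9 CPM in Neuron (5.55 ± 1.38, adjusted p = 0.013); it is named because it stood alone. Of 26 genes of Notch, BMP, Wnt and Hedgehog signalling 12 fell and 1 rose, with a median of -1.64. The receptor Notch1, through which neighbouring cells keep stem cells undifferentiated, was at 272, 487 and 283 CPM in NSC and at 62.4, 92.8 and 41.3 CPM in Neuron (-2.40 ± 0.35). Its ligands Jag1 (-3.26 ± 0.42), Dll1 (-3.75 ± 0.58) and Dll3 (-4.43 ± 0.73) fell as well. Among secreted Wnt modulators Sfrp1 fell from 197, 201 and 232 CPM to 2.11, 3.55 and 1.68 CPM (-6.40 ± 0.60, adjusted p = 5.13e-05) and Dkk3, another such modulator, fell by 4.31 ± 0.62, with no overlap between the groups in either. Wif1, the Wnt inhibitor that was the one riser, had no counts in NSC and 15.7, 11.9 and 5.21 CPM in Neuron, at least 141-fold higher against 3 counts over the NSC libraries (adjusted p = 0.0317). That call was lost without any one library except Neuron 3 (adjusted p from 0.0574 to 0.0836).

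Of 20 genes of activated and committed progenitors 13 fell and 1 rose, with a median of -2.35. Cdk6, the kinase of the early cell cycle, fell from 404, 320 and 237 CPM to 0.528, 1.35 and 4.28 CPM (-7.39 ± 0.75, adjusted p = 7.84e-05). The Notch antagonist Hes6 fell by 3.90 ± 0.32, the interneuron fate factor Dlx2 fell by 3.49 ± 0.34 and the antiproliferative Btg2 by 2.38 ± 0.25. Every Neuron library lay below every stem cell library for these 4 genes. Sp8, a fate factor that bulb interneurons keep, rose from 35.2, 18.5 and 25.6 CPM to 173, 98.8 and 158 CPM (2.44 ± 0.38, adjusted p = 0.000926).

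Cell cycle genes fell almost without exception, and mitosis genes had the lowest median of the 37 lists. All 24 DNA replication genes fell, with a median of -3.66, and 23 of 24 mitosis genes fell, with a median of -6.31 (-11.11 without Neuron 3, a fitted value that is no bound). Mcm6 (ENSMUSG00000026355, chromosome 1, 128331575 to 128359705), a subunit of the helicase that opens replication origins, was at 349, 292 and 236 CPM in NSC and at 6.65, 14.1 and 24.2 CPM in Neuron (-4.30 ± 0.44, adjusted p = 7.77e-05). Rrm2, which makes deoxynucleotides, was at 577, 517 and 504 CPM in NSC and at 0.211, 0.367 and 4.47 CPM in Neuron (-8.51 ± 0.85). The clamp Pcna fell by only 2.34 ± 0.23 and remained at 49.5, 67.8 and 81.8 CPM. Neuron 3 held the highest residual level of these 3 genes. Among mitosis genes, Kif11 (ENSMUSG00000012443, chromosome 19, 37376382 to 37421863), the motor that separates spindle poles, was at 164, 156 and 142 CPM in NSC, while the Neuron libraries held 3 counts in all, a ratio of 1180 (95% counting interval 405 to 5740). Cdk1, the kinase that starts mitosis, was at 163, 181 and 215 CPM in NSC and at 1.27, 3.79 and 7.63 CPM in Neuron (-5.51 ± 0.53). The kinases Aurkb and Bub1 had no counts in any Neuron library and were at least 952-fold and 508-fold lower. The one mitosis gene that missed the threshold was Nuf2, named for that reason, at 0, 0 and 18.2 CPM in Neuron against 100 to 112 CPM in NSC (adjusted p = 0.0572, and 0.000964 without Neuron 3). The summed level of the mitosis genes was 3830 to 4589 CPM in NSC and 49.2, 41.3 and 188 CPM in Neuron.

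Promoter sequences are shown for 3 of these genes because the cell cycle lists share short promoter elements that factors of the cell cycle are known to bind. The sequences are the 150 bases before the annotated start from RefSeq (GRCm38.p6), 5′ to 3′ on the strand of the gene. Capitals mark CCAAT boxes (CCAAT, which reads ATTGG on the other strand) and cell cycle homology elements (the letters TTTGAA, as well as TTCGAA, on either strand, so that TTCAAA is the first of them read in reverse) in Kif11 and Cdk1, and E2F-type letters (TTGGCGC on one strand, overlapping with TTCGCGC on the other) in Mcm6.
Kif11, chr19:37376232-37376381, plus strand: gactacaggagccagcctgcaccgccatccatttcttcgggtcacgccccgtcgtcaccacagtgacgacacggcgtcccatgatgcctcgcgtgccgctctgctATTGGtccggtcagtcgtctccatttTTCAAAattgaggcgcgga
Cdk1, chr10:69352913-69353062, minus strand: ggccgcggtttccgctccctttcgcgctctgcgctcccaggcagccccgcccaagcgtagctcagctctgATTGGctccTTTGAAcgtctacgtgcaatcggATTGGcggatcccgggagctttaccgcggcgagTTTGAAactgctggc
Mcm6, chr1:128359706-128359855, minus strand: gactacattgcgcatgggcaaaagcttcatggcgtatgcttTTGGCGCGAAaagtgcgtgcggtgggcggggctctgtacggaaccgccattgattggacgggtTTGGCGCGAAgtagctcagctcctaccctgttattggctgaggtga
Within 250 bases before the start and on both strands, a CCAAT box was present in 18 of 22 promoters of mitosis genes (81.8%) in 33.8% of all 32851 promoters and in 34.8% of the 14985 promoters of genes tested. A cell cycle homology element was present in 9 of the 22 (40.9%), in 17.1% of all and in 12.3% of those of genes tested, and both elements together in the same 9 (40.9%), in 6.02% of all and in 4.66% of those of genes tested. E2F-type letters (the letters TTCCCGC, as well as TTGGCGC, and also TTCGCGC, and finally TTGCCGC) were present in 13 of 25 promoters of DNA replication genes (52%), in 7.89% of all promoters and in 13% of those of genes tested. Within the 150 bases before the start, Mcm6 held E2F-type letters, while Rfc4, Cdt1, Pcna and Rrm2, also picked by rank, held none. The Mcm6 sequence is therefore not typical of the replication genes looked at in this shorter window. Over the 250 bases 13 of 25 promoters of the list held such letters. These matches describe letters and not binding, and some genes have more than 1 promoter.

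Genes that govern exit from the cycle fell or did not pass the threshold. The 12 genes tested were those for cyclin-dependent kinase inhibitors, D-type cyclins and pocket proteins, as well as Btg1 and Gas1. Gas1 is also counted among the signalling genes above. Of the 12 genes 7 fell and none rose, with a median of -1.49 and changes from -5.44 to 1.02. Ccnd2, the D-type cyclin of neural progenitors, was at 3397, 3045 and 2905 CPM in NSC and at 97.2, 74.6 and 43.4 CPM in Neuron (-5.44 ± 0.37, adjusted p = 9.38e-06). Ccnd3 fell by 2.11 ± 0.37, the pocket protein genes Rbl1 by 2.87 ± 0.42 and Rb1 by 1.36 ± 0.24, and the inhibitor Cdkn2c by 4.93 ± 0.88. In all 5 genes the Neuron libraries lay below the stem cell libraries.

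Genes of migrating neuroblasts moved both ways between the ends of the lineage. Of 36 tested 8 rose and 14 fell, with a median of -0.27, and the count of risers was 5 without NSC 2 or without NSC 3. Sox11, the factor that starts neuronal gene expression, was at 1400, 1166 and 1079 CPM in NSC and at 20.7, 17.9 and 45.6 CPM in Neuron (-5.44 ± 0.47, adjusted p = 3.09e-05). St8sia2, which adds polysialic acid to NCAM, had no counts in Neuron and was at least 169-fold lower. Robo2, a guidance receptor for Slit, rose from 46.5, 30.8 and 33.3 CPM to 340, 266 and 204 CPM (2.87 ± 0.34), and the RNA-binding protein Celf4 from 88.5, 53.3 and 81.1 CPM to 558, 612 and 737 CPM (3.10 ± 0.27). The tubulin genes parted, with Tubb2b falling by 1.97 ± 0.22 and Tubb2a rising by 1.31 ± 0.17. The groups did not overlap in any of the neuroblast genes named here.

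Most genes of the presynaptic machinery rose. Of 38 genes for synaptic vesicles and release 28 rose and none fell, and 10 did not pass the threshold, with a median of 2.74 beside -0.06 over all genes. Snap25 (ENSMUSG00000027273, chromosome 2, 136713439 to 136782428), the SNARE protein of the plasma membrane, was at 318, 32.5 and 318 CPM in NSC and at 2339, 2502 and 4083 CPM in Neuron (3.74 ± 0.67, adjusted p = 0.00205); it is named as a partner of Syt1 and not by rank. Rab3a, the vesicle GTPase, was at 98.1, 54.2 and 156 CPM in NSC and at 601, 717 and 702 CPM in Neuron (2.71 ± 0.34). The active zone scaffold Pclo rose by 3.32 ± 0.34, the clathrin adaptor Snap91 by 4.03 ± 0.42, the endocytic protein Amph by 2.84 ± 0.36, the SNARE disassembly ATPase Nsf by 2.44 ± 0.31 and the vesicle protein Syngr1 by 2.24 ± 0.26. Each Neuron library lay above each stem cell library for these 7 genes. The stem cell libraries were not free of neuronal transcripts: the summed level of the list was 2993, 1931 and 3583 CPM in NSC and 14513, 15668 and 16398 CPM in Neuron. Postsynaptic and mature neuron genes followed, with 23 of 40 higher, none lower and a median of 1.91. Dlg2, a scaffold of the postsynaptic density, was at 8.17, 3.12 and 7.07 CPM in NSC and at 130, 152 and 125 CPM in Neuron (4.47 ± 0.45, adjusted p = 7.28e-05). Ank3, which builds the axon initial segment, rose by 3.91 ± 0.43, the adhesion protein Cntnap2 by 4.51 ± 0.57, the kinase subunit Camk2b by 4.13 ± 0.52 and the phosphatase subunit Ppp3ca by 1.86 ± 0.26.

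Most receptor and channel subunits tested rose. Of 34 glutamate and GABA receptor subunits 23 rose and none fell, with a median of 2.62. Gria2 (ENSMUSG00000033981, chromosome 3, 80681450 to 80804227), the AMPA receptor subunit that blocks calcium entry, was at 121, 71.5 and 91.1 CPM in NSC and at 777, 815 and 1256 CPM in Neuron (3.33 ± 0.32, adjusted p = 5.66e-05). The NMDA subunit Grin2b rose by 2.74 ± 0.33 and the kainate subunit Grik3 by 2.89 ± 0.32. Of 42 voltage-gated channel subunits 25 rose and none fell, with a median of 2.71. Cacna1c, a pore-forming subunit of L-type calcium channels, was at 10.2, 8.08 and 7.40 CPM in NSC and at 50.4, 73.9 and 52.1 CPM in Neuron (2.77 ± 0.28, adjusted p = 8.2e-05). The calcium channel Cacna1e rose by 4.26 ± 0.66, the A-type potassium channel Kcnd2 by 4.42 ± 0.68 and the sodium channel subunit Scn3b by 2.60 ± 0.33. No library of either group overlapped the other group in these 7 genes.

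Most markers of bulb interneuron types rose, and fewer of the genes for GABA. Of 10 genes for GABA synthesis, loading and chloride transport 4 rose, 1 fell and 5 did not pass the threshold. Gad1 (ENSMUSG00000070880, chromosome 2, 70561303 to 70602014), which makes GABA, was at 74.8, 39.6 and 313 CPM in NSC and at 1055, 1627 and 2724 CPM in Neuron (3.66 ± 0.68, adjusted p = 0.00265). Its relative Gad2 rose by 1.85 ± 0.32. The vesicular GABA transporter Slc32a1 was low throughout, at 2.54, 1.37 and 7.18 CPM in NSC and 23.9, 11.9 and 9.68 CPM in Neuron (2.05 ± 0.65, adjusted p = 0.0405), and its call was lost without Neuron 1, Neuron 2, NSC 1 or NSC 2 (adjusted p from 0.051 to 0.132). The chloride extruder Slc12a5, which makes GABA inhibitory, rose by 3.06 ± 0.52, while the cotransporter Slc12a7 fell from 33, 28.7 and 27.6 CPM to 1.37, 2.2 and 0.186 CPM (-4.51 ± 0.74, adjusted p = 0.00127). Of 28 markers of bulb interneuron types 18 rose and none fell, with a median of 2.73 (4.36 without NSC 3 and 4.64 in the comparison of NSC 2 with Neuron, which share an index); 1 was lower at an unadjusted p under 0.05, and 12 rose without NSC 2. Calb2 (ENSMUSG00000003657, chromosome 8, 110142526 to 110168212), which marks calretinin cells, was at 0, 1.22 and 0.449 CPM in NSC and at 746, 1225 and 560 CPM in Neuron (10.59 ± 1.03, adjusted p = 6.65e-05). Th (ENSMUSG00000000214, chromosome 7, 142892779 to 142899995), the enzyme of dopaminergic periglomerular cells, was at 0, 0 and 0.449 CPM in NSC and at 181, 239 and 703 CPM in Neuron (11.59 ± 2.06, adjusted p = 0.00315). The granule cell markers Synpr and Gng4 rose by 4.43 ± 0.79 and 6.61 ± 0.88 and the copine gene Cpne4 by 5.46 ± 0.69. Reln, an extracellular signal that bulb mitral cells also make, was at 0, 2.44 and 1.79 CPM in NSC and at 246, 241 and 204 CPM in Neuron (7.39 ± 1.31). Th and Gng4 varied among the Neuron libraries more than 2-fold, with Neuron 3 highest, and neither group overlapped the other.

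Ribosomal protein genes fell as a block. Of 81 genes for cytosolic ribosomal proteins 80 fell, beside 12.8% of all genes, with a median of -1.73 and a range from -3.28 to -0.82. Rplp0 (ENSMUSG00000067274, chromosome 5, 115559467 to 115563729), a protein of the ribosomal stalk, was at 685, 901 and 792 CPM in NSC and at 161, 143 and 140 CPM in Neuron (-2.42 ± 0.21, adjusted p = 3.23e-05). Rps18, of the small subunit, was at 296, 289 and 334 CPM in NSC and at 77.8, 60.7 and 56.4 CPM in Neuron (-2.24 ± 0.22), and Rps26 at 271, 314 and 333 CPM and at 62, 42.4 and 30.4 CPM (-2.77 ± 0.30). Rpl32 fell by 2.52 ± 0.25, Rps27a, whose protein is fused to ubiquitin, by 2.05 ± 0.22, and Rps27l by 2.67 ± 0.23. All 80 lay lower in every Neuron library than in any stem cell library, beside 26.6% of all genes. The summed level of the list was 19931 to 24267 CPM in NSC and 8298, 6210 and 5712 CPM in Neuron. In the early neuroblasts the sum was 21405 to 33627 CPM and in the late neuroblasts 18267 to 23137 CPM. The exception was Rpl24, whose entry was at 0 to 1.88 CPM in all 6 libraries (-1.15 ± 1.12, adjusted p = 0.491) and which fell by 1.64 in the deposited expected counts. Many ribosomal protein genes have near-identical copies, and how reads that fit several copies were counted is not given in the sources used here; with expected counts 78 of 80 fell. The comparison of NSC 2 with Neuron, which share an index, gave a median of -1.87.

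Start sequences of 3 of these genes are shown because mRNAs of ribosomal proteins are known to begin with a pyrimidine run (a TOP motif) through which mTOR controls their translation. Each is a 30-base window from RefSeq (GRCm38.p6), 5′ to 3′ on the strand of the gene, that starts 10 bases before the annotated start, with the longest run of C and T in capitals.
Rplp0, chr5:115559457-115559486, plus strand: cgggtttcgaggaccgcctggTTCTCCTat
Rps18, chr17:33955646-33955675, minus strand: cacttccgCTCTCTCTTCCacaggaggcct
Rps26, chr10:128626487-128626516, minus strand: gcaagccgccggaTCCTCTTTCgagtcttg
A run of at least 7 C or T was present in this window in 34 of 71 promoters of ribosomal protein genes (47.9%), in 17.9% of all promoters and in 17.5% of those of genes tested, without regard to where in the window it stood.

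Translation factors did not move as a block. Of 41 tested 22 fell and 3 rose, with a median of -0.69, and the number that fell was 14 without NSC 1 and 13 without NSC 2. Eef1a1, the elongation factor that brings tRNAs to the ribosome, was at 1685, 2437 and 2047 CPM in NSC and at 794, 817 and 771 CPM in Neuron (-1.37 ± 0.20, adjusted p = 0.000527). Eif4a1, the helicase of initiation, fell by 1.53 ± 0.27, Eif2s2 by 1.15 ± 0.20, Eif4b by 1.13 ± 0.22, Eif3e by 1.14 ± 0.23 and Eef1d by 1.25 ± 0.18, with no overlap between the groups. The risers, named because they were only 3, were the second helicase Eif4a2 (0.93 ± 0.22, adjusted p = 0.0101), the scaffold Eif4g3 (0.80 ± 0.23, adjusted p = 0.029) and Eif5a2 (1.78 ± 0.53, adjusted p = 0.0294). Without NSC 1, NSC 2 or NSC 3 only 1 riser remained past the threshold: for Eif4g3 the adjusted p without a single library reached 0.103 and for Eif5a2 0.107. In the mTOR pathway, which senses nutrients and growth factors, 6 of 39 genes rose and 4 fell, shares near the 11.0% and 12.8% of all genes, with a median of -0.07 (0.06 without Neuron 1 and 0.04 with RLE scaling). Deptor, an inhibitor bound to mTOR, was at 5.63, 6.02 and 7.29 CPM in NSC and at 198, 120 and 95.9 CPM in Neuron (4.45 ± 0.56, adjusted p = 0.000245), and Rragd, a GTPase of the amino acid branch, rose by 2.74 ± 0.43. The growth factor receptor Igf1r fell by 1.27 ± 0.29. Leaving out 1 library gave 2 risers without Neuron 1 and 3 without NSC 3, and 2 fallers without NSC 1 and 1 without NSC 2, and ended the calls of Akt2 (-1.21 ± 0.29, adjusted p = 0.0501 without NSC 2), Akt1s1 (-1.38 ± 0.34, 0.0535 without NSC 1 and 0.0523 without NSC 2) and Pik3ca (0.98 ± 0.26, 0.0638 without Neuron 1 and 0.0869 without NSC 2).

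Genes of energy metabolism changed to a different extent in each pathway, to be read beside 11.0% higher and 12.8% lower over all genes. Of 21 glycolysis genes 9 rose and 1 fell, with a median of 0.89, and 5 rose without NSC 1 or without NSC 2. Pfkp (ENSMUSG00000021196, chromosome 13, 6579874 to 6649060), a phosphofructokinase, was at 69.1, 42.1 and 85.2 CPM in NSC and at 366, 502 and 514 CPM in Neuron (2.82 ± 0.40, adjusted p = 0.000503). The aldolase Aldoa rose by 1.73 ± 0.30, the enolases Eno1 and Eno2 by 1.72 ± 0.41 and 3.73 ± 0.54, and the neuronal glucose transporter Slc2a3 by 2.71 ± 0.67. Hk2, the hexokinase of growing cells, fell from 8.17, 9.91 and 7.18 CPM to 0.739, 0 and 0 CPM (adjusted p = 0.0244), a call lost without any one library except Neuron 1 (adjusted p from 0.0519 to 0.0671). Of 22 fatty acid oxidation genes 10 fell and 2 rose, with a median of -1.0; 4 fell without NSC 1 or NSC 2, 5 without NSC 3 and 6 without Neuron 1, and 1 rose without any one library except Neuron 1. Eci2 (ENSMUSG00000021417, chromosome 13, 34977748 to 35027115), an enoyl-CoA isomerase, was at 141, 176 and 155 CPM in NSC and at 31.3, 45.5 and 32.6 CPM in Neuron (-2.11 ± 0.25, adjusted p = 0.000182). Echs1 fell by 1.71 ± 0.22, Eci1 by 1.32 ± 0.27 and Hadh by 2.50 ± 0.52, while Cpt1c, a neuronal form of carnitine palmitoyltransferase, rose by 1.03 ± 0.22. No groups overlapped in these genes. Of 53 oxidative phosphorylation genes 4 rose and 2 fell, fewer than the 11.0% and 12.8% of all genes, with a median of 0.18 and a range from -0.97 to 0.69. No gene rose without Neuron 3, NSC 1 or NSC 2 and 1 rose without Neuron 2 or NSC 3, while 7 rose with RLE scaling, 12 with DESeq2 and 18 with limma on log2 TPM. The fallers were the complex I subunits Ndufc2 (-0.97 ± 0.24, adjusted p = 0.0118) and Ndufa2 (-0.91 ± 0.22, adjusted p = 0.0117). Among the risers, Ndufv1, Ndufv2 and Cyc1 changed by 0.58 to 0.69 with adjusted p from 0.0276 to 0.0473, and none of these 3 was past the threshold without Neuron 3, NSC 1, NSC 2 or NSC 3 (adjusted p from 0.0528 to 0.166). Leaving out Neuron 1 ended the calls of Ndufv1 and Cyc1, and leaving out Neuron 2 those of Ndufv2 and Cyc1 (adjusted p from 0.0665 to 0.0755). Ndufa2 was not past it without NSC 1 (adjusted p = 0.0632). Of 30 genes of cholesterol and fatty acid synthesis 8 fell and 1 rose, with a median of -1.0, led by Fdft1, the first enzyme of the sterol branch, at -1.30 ± 0.24 (adjusted p = 0.00232). That count was 4 without Neuron 3, 2 without NSC 1 and 3 without NSC 2 or NSC 3.

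Some immediate early genes, which respond to activity and to the dissociation of tissue, were lower in Neuron. Of 26 tested 5 fell and 1 rose, beside 12.8% and 11.0% of all genes, with a median of -0.50. Without Neuron 1 8 fell, and without NSC 2 3 fell, a share near that of all genes. The median was -1.04 without Neuron 1, -0.12 without Neuron 2 and -0.13 without NSC 2, and it was -1.02 with the index as a term and -1.30 in the comparison of NSC 2 with Neuron. Egr1 (ENSMUSG00000038418, chromosome 18, 34861207 to 34864956) was at 2025, 1797 and 1375 CPM in NSC and at 302, 251 and 366 CPM in Neuron (-2.50 ± 0.31, adjusted p = 0.000218). Ier2 fell by 2.39 ± 0.35, Jun by 1.71 ± 0.41 and the phosphatase Dusp1 by 1.15 ± 0.27; without NSC 2 the adjusted p was 0.0595 for Jun and 0.0699 for Dusp1. The nuclear receptor Nr4a1 was the riser (2.08 ± 0.60, adjusted p = 0.0268), with adjusted p from 0.0531 to 0.097 without Neuron 2, Neuron 3, NSC 1 or NSC 3. The labels give both groups the same protocol of dissociation and sorting, with the doubt about the Neuron descriptions given above, and the part of dissociation in these levels was not tested.

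Long noncoding RNAs went both ways. Of 21 tested 6 rose and 8 fell; 3 fell without NSC 1, 4 without NSC 2 and 5 without Neuron 2. Meg3 (ENSMUSG00000021268, chromosome 12, 109540996 to 109571729), an imprinted nuclear RNA, was at 497, 579 and 668 CPM in NSC and at 7430, 3405 and 2731 CPM in Neuron (2.96 ± 0.39, adjusted p = 0.000327), and its neighbour in the same imprinted domain, Rian, rose by 2.55 ± 0.38. Snhg11 was at 59.8, 48.6 and 171 CPM in NSC and at 3467, 1784 and 1935 CPM in Neuron (4.69 ± 0.80), and Kcnq1ot1 rose by 2.98 ± 0.32. Neuron 1 held the highest level of Meg3, Snhg11 and Kcnq1ot1. Pantr1, transcribed beside the progenitor factor Pou3f3, fell from 345, 283 and 291 CPM to 11.2, 15.9 and 12.7 CPM (-4.53 ± 0.23, adjusted p = 1.18e-06), and Miat by 2.35 ± 0.36. Of 46 chromatin and RNA-binding regulators 19 fell and 7 rose, with a median of -0.40. Hmgb2 (ENSMUSG00000054717, chromosome 8, 57511843 to 57515999), a chromatin protein of dividing progenitors, was at 1142, 1344 and 1146 CPM in NSC and at 9.4, 9.18 and 15.5 CPM in Neuron (-6.75 ± 0.34, adjusted p = 1.18e-06). The splicing repressor Ptbp1 fell by 2.83 ± 0.21, the stem cell translation regulator Msi1 by 3.55 ± 0.30, Hnrnpa1 by 2.22 ± 0.24 and Hmgb1 by 1.88 ± 0.23. Of 36 matrix and adhesion genes 13 rose and 1 fell; 8 rose without NSC 1, and 3 fell without Neuron 3 and 2 without Neuron 2. The axon adhesion proteins L1cam and Cntn1 rose by 3.59 ± 0.49 and 3.51 ± 0.66 and the matrix protein Matn4 from 0.484, 0.381 and 1.57 CPM to 130, 50.6 and 55.7 CPM (6.67 ± 1.17), while the integrin Itgb1 fell by 1.76 ± 0.22.

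Related genes often changed places. For 46 pairs of related genes, each with a member known as more neuronal, the log2 ratio of TPM of the more neuronal member to the other was set out per library, since TPM corrects for length. The pairs were drawn up from such knowledge and with earlier results of these data known, so their direction is no support for anything. In 35 pairs every Neuron library lay above every stem cell library, in 11 the groups overlapped, and in 0 Neuron lay below in every library. In 9 pairs one member fell and the other rose in the count test. Actl6a and Actl6b, alternative subunits of the BAF chromatin remodelling complex in progenitors and neurons, gave log2 ratios of Actl6b to Actl6a of -2.09, -2.95 and -2.05 in NSC and 1.99, 3.01 and 1.61 in Neuron, and the genes changed by -2.64 ± 0.30 and 1.90 ± 0.32 (adjusted p = 0.000148 and 0.00152). The beta tubulins Tubb4a to Tubb4b gave -2.41, -4.11 and -2.38 in NSC and 1.73, 1.53 and 1.92 in Neuron, and Tubb2a to Tubb2b gave 0.13, -0.09 and 0.17 in NSC and 3.22, 3.22 and 3.48 in Neuron. In these 3 pairs the neuronal member had the lower or a similar TPM in NSC and the higher in Neuron. The SNARE proteins Vamp2 and Vamp3 changed by 1.89 ± 0.27 and -1.28 ± 0.27, and the initiation helicases Eif4a2 and Eif4a1 gave ratios of -2.15, -1.40 and -1.61 in NSC and 0.75, 0.35 and 0.98 in Neuron. The largest change of a ratio, 6.25, belonged to Ndrg4 over Ndrg2, with -3.33, -4.96 and -2.36 in NSC and 2.25, 1.49 and 4.36 in Neuron. Ndrg2, which astrocytes express, fell by 1.81 ± 0.50 (adjusted p = 0.0209), a call lost without Neuron 1, Neuron 3, NSC 1 or NSC 2 (adjusted p from 0.0545 to 0.0702). In other pairs only one member passed the threshold: the maintenance methyltransferase Dnmt1 fell by 2.22 ± 0.33 and Dnmt3a was at 0.65 ± 0.26 (adjusted p = 0.0863), and the Polycomb enzyme Ezh2 fell by 2.62 ± 0.54 with Ezh1 at 0.33 ± 0.25 (adjusted p = 0.352). Ptbp2, the relative that takes over from Ptbp1 in neurons, was at 166, 133 and 163 CPM in NSC and at 57, 160 and 90.1 CPM in Neuron (-0.59 ± 0.31, adjusted p = 0.184), so its ratio changed through the fall of Ptbp1.

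**Figure D4:**
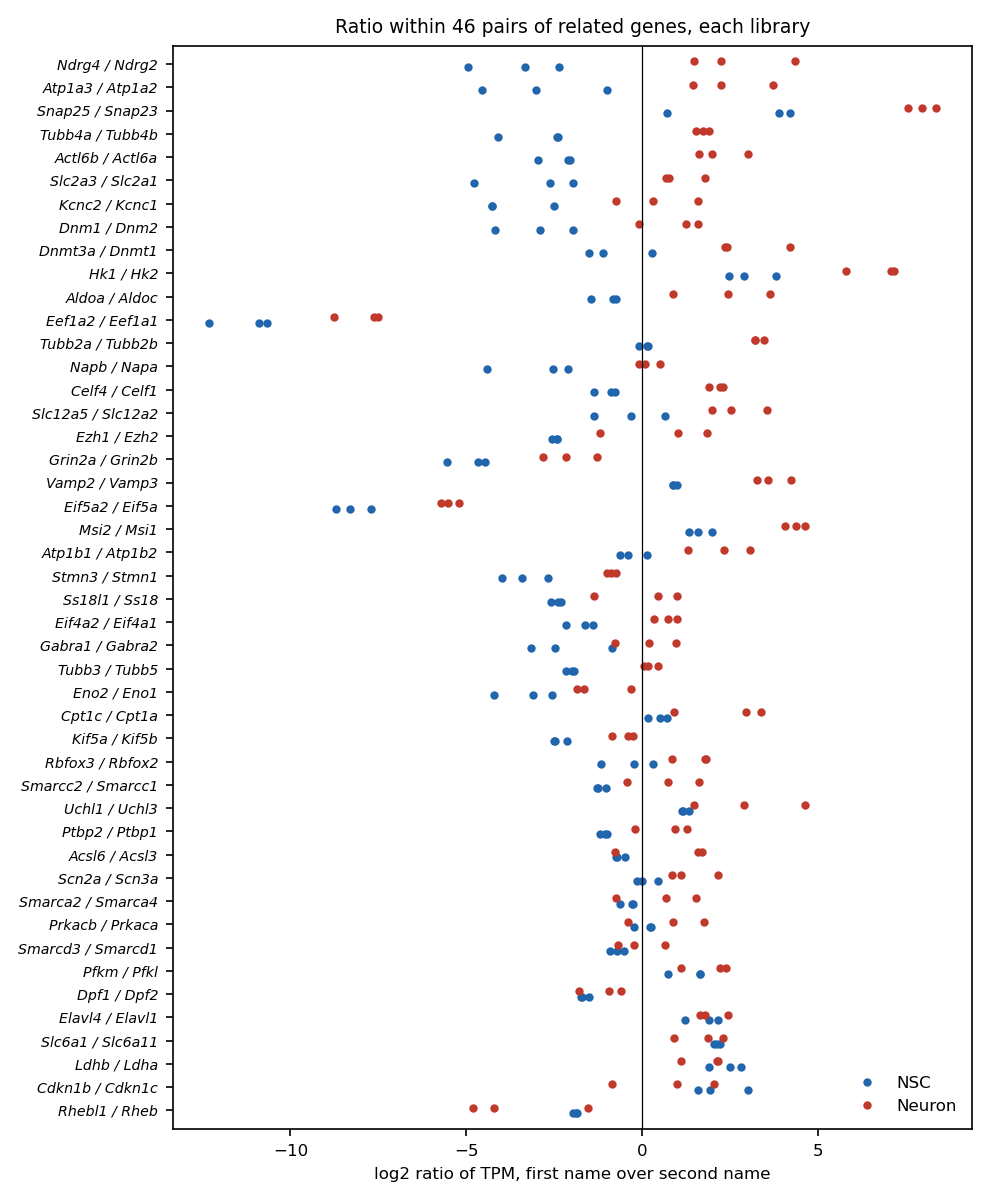
Log2 ratio of TPM (horizontal axis) between the members of 46 pairs of related genes, the more neuronal member named first; each point is 1 library of NSC (blue) or Neuron (red). In 35 pairs all red points lie to the right of all blue ones, with Ndrg4 over Ndrg2 at the top, and in the other 11 the groups overlap.

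At the ends of the ranking stood genes with no or few counts in one group. Among protein-coding genes whose groups did not overlap, the 10 largest falls were those of Aurkb, Fzd5, Gsx2, Bub1, Sgo2a, Dbf4, E2f7, Slc2a4, Kifc1 and Ska1, none of which had a count in Neuron. Aurkb, Bub1, Sgo2a, Kifc1 and Ska1 act in mitosis, Dbf4 and E2f7 in S phase, and Gsx2 is a patterning factor of the lateral ganglionic eminence and its adult derivative. Gsx2 was at 81.2, 55 and 65.2 CPM in NSC, at least 515-fold higher there, and the Wnt receptor Fzd5 at 64.3, 89.3 and 57.1 CPM, at least 539-fold higher. The 10 largest rises were those of Trh, Cdhr1, Adcyap1, Ms4a15, Grem1, Thsd7b, Cpa6, Th, Abi3bp and Gdpd4. Trh, a neuropeptide precursor, had no counts in NSC and 4.22, 56.9 and 503 CPM in Neuron, so its level rests on Neuron 3. Cdhr1, a cadherin of mitral and tufted cells in the bulb, was at 458, 454 and 366 CPM in Neuron and had 1 count in all of NSC, a ratio of 16400 (95% counting interval 2950 to 649000), and Abi3bp had 3 counts in NSC, a ratio of 2670 (913 to 12900). The neuropeptide gene Adcyap1 was at 90.7, 65.5 and 73 CPM in Neuron, at least 982-fold higher, and the BMP antagonist Grem1 at 75.4, 54.9 and 45.8 CPM, at least 754-fold higher.

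The Neuron libraries held transcripts of other cell types. Of 40 genes of stem cells and the astrocyte lineage 6 fell in total mRNA, beside 12.8% of all genes, and none rose, with a median of -0.94. That median was -1.60 without Neuron 2, -0.34 with the index as a term and -1.53 in the comparison of NSC 2 with Neuron, and 11 fell with only the 6 libraries in the fit. Those that fell were Thbs4, Vim, Nes, Mt2, Cpe and Mt1. Nes, the filament of neural progenitors, went from 58.2, 60.9 and 60.9 CPM to 0.211, 4.16 and 3.54 CPM (-4.53 ± 0.69, adjusted p = 0.000827), and Thbs4, an adhesive matrix protein, from 194, 235 and 280 CPM to 2 counts in all of Neuron, a ratio of 2720 (95% counting interval 752 to 22400). The call of Cpe was lost without Neuron 1 or Neuron 3 (adjusted p = 0.0579 and 0.0566) and that of Mt1 without any library except Neuron 2 (adjusted p from 0.0767 to 0.124). Of the 40 genes 33 had a negative and 7 a positive change. In 17 every Neuron library lay below every stem cell library, and in 1 every Neuron library lay above. The astrocyte genes Apoe, Gfap and Aqp4, chosen here after their values were seen, were not lower in every Neuron library and do not stand for the list. Apoe was at 6092, 7830 and 6414 CPM in NSC and at 4941, 7932 and 1761 CPM in Neuron (-0.47 ± 0.72, adjusted p = 0.674), Gfap at 67.9, 111 and 152 CPM and at 112, 243 and 39.9 CPM (0.26 ± 0.87, adjusted p = 0.86), and Aqp4 at 80.1, 101 and 99.5 CPM and at 163, 474 and 78.2 CPM (1.35 ± 0.83, adjusted p = 0.26). Neuron 2 was highest and Neuron 3 lowest for all 3 genes, and the groups overlapped. The summed level of the 40 genes was 38673 to 47123 CPM in NSC and 19002, 36259 and 10314 CPM in Neuron.

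Of 16 markers of mature astrocytes 2 rose and 1 fell, beside 11.0% and 12.8% of all genes, with 1 riser without any one library. Their summed level was 1135, 1599 and 1205 CPM in NSC and 1616, 3418 and 744 CPM in Neuron. Of 10 markers of oligodendrocyte precursors 7 rose, with Pdgfra at 1.03, 2.44 and 10.8 CPM in NSC and at 80.5, 54 and 174 CPM in Neuron (4.47 ± 1.00, adjusted p = 0.00751). The sum of that list was 31.2, 55.7 and 176 CPM in NSC and 950, 817 and 1690 CPM in Neuron, and 4 rose without NSC 2. Of 15 oligodendrocyte markers 1 rose (3 without Neuron 1, 5 without NSC 3 and 0 without Neuron 2, Neuron 3, NSC 1 or NSC 2), with sums of 304 to 3247 CPM in NSC and 2040 to 9623 CPM in Neuron. Of 10 markers of mitral and other glutamatergic neurons 5 rose and none fell (1 by DESeq2 and 1 at an unadjusted p under 0.05), with Slc17a6, the vesicular glutamate transporter, at 2, 0 and 0 CPM in NSC and at 132, 76.5 and 102 CPM in Neuron (7.13 ± 1.49, adjusted p = 0.00513). The sums were 90.7, 3.73 and 2.80 CPM in NSC and 858, 847 and 679 CPM in Neuron; 2 rose without NSC 3 and 3 without NSC 2 or Neuron 2. Markers of microglia summed to 53.3 to 70.3 CPM in NSC and 32.9 to 60.9 CPM in Neuron, with none of 11 past the threshold in edgeR (2 higher by DESeq2 and 1 at an unadjusted p under 0.05), and the 8 ependymal markers summed to 75.4 to 102 CPM in NSC and 9.12 to 30.5 CPM in Neuron, with 4 lower, 2 without Neuron 3 and 1 without Neuron 1 or any one NSC library. The endothelial markers Cldn5, Cdh5, Slco1a4 and Tek were at 0 in NSC, and the list summed to 7.63 to 110 CPM in Neuron. For comparison, the bulb controls, immunoprecipitates of bulb homogenate without the HA tag whose CPM were scaled separately, held 199.5 to 363 CPM of the oligodendrocyte precursor markers, less than any Neuron library. They held 2410 to 5236 CPM of the oligodendrocyte markers, 814 to 1458 CPM of the astrocyte markers, 408 to 621 CPM of the mitral markers, 266 to 880 CPM of the microglia markers and 336 to 485 CPM of the endothelial markers. In bulk libraries fewer cells of a type and less RNA per cell cannot be told apart, and the part of other cells in the changes above was not tested. Whether the Neuron libraries were sorted, which the wording of their descriptions puts in doubt, was not tested either.

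Ribosome-bound mRNA of the same stages gives a second measurement from other animals. In RiboTag, tagged ribosomes are recovered with an antibody to HA, and the labels of the 2 NSC libraries give a homogenate of whole tissue with no sort. The 2 Neuron libraries were grouped as ribosome-bound by their titles and descriptions, while their sample type reads total mRNA and their protocol is that of the sorted cells. They held 13316334 and 12793358 counts and carry the indices of the sorted libraries, where the NSC immunoprecipitates held 6325479 and 7734087 counts and carry another index. Every ribosome-bound value and interaction below rests on this grouping, and index and stage cannot be told apart in it. There 5092 of 19066 genes passed the threshold (26.7%), 2104 higher (11.0%) and 2988 lower (15.7%). Of 1922 genes that rose in total mRNA and were tested in both, 1542 had the same sign (80.2%), 925 also rose (48.1%, which is 45.4% of the genes that rose in ribosome-bound mRNA) and 102 fell. Of 2169 that fell in total mRNA 1767 had the same sign (81.5%), 866 also fell (39.9%, or 32.5% of those that fell in ribosome-bound mRNA) and 23 rose. The test of the difference itself, an interaction over 21 libraries, found 1164 of 19913 genes (5.85%), 488 with a more positive (2.45%) and 676 with a more negative (3.39%) change in ribosome-bound mRNA; with RLE scaling, which moved the median of all genes from -0.01 to -0.15, the numbers were 345 and 764. Without one of the ribosome-bound libraries the count was 277 (NSC 1), 721 (NSC 2), 521 (Neuron 1) or 283 (Neuron 2), and without one total mRNA library it was 735 (NSC 1) or 703 (NSC 2).

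The lists differed in how far both measurements went together. All 40 stem cell and astrocyte-lineage genes fell in ribosome-bound mRNA, with a median of -3.72 beside -0.94 in total mRNA (-1.60 there without Neuron 2), and 8 of the 40 differed by the interaction, all toward a lower level in ribosome-bound mRNA. Gfap changed by -3.99 ± 0.36 and Aqp4 by -3.18 ± 0.50 in ribosome-bound mRNA, with interactions of -4.20 and -4.47 (adjusted p = 0.0421 and 0.0318). Their list summed to 4564 to 5319 CPM in the Neuron immunoprecipitates and to 44815 to 57664 CPM in those of NSC. Of the 81 ribosomal protein genes 61 fell in ribosome-bound mRNA, with a median of -1.20 beside -1.73, and 10 differed by the interaction, all toward a smaller fall. Rplp0 changed by -1.53 ± 0.23 there (interaction 0.95, adjusted p = 0.0485) and Rpl32 by -1.20 ± 0.32 (interaction 1.37, adjusted p = 0.023). Mitosis genes fell in both, 24 of 24 in ribosome-bound mRNA with a median of -6.34, and 0 of 24 differed by the interaction.

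For a share of the synaptic and channel genes the change in ribosome-bound mRNA was smaller. The median of synaptic vesicle genes was 1.09 there beside 2.74 in total mRNA, that of channels 0.44 beside 2.71, and 11 of 38 and 9 of 42 differed by the interaction, all toward a lower change. Cacna1e changed by 0.12 ± 0.27 in ribosome-bound mRNA (interaction -4.09, adjusted p = 0.00669), and Pclo by -0.33 ± 0.42 (interaction -3.61, adjusted p = 0.00195). Markers of bulb interneuron types had a median of 2.12 beside 2.73, and 3 of 28 differed by the interaction. Calb2 changed by 10.24 ± 0.95 and Th by 14.70 ± 0.67, with interactions of -0.31 and 3.40 (adjusted p = 0.951 and 0.819). Gad1, at 4.11 ± 0.31, also showed no interaction past the threshold (0.49, adjusted p = 0.794). Among long noncoding RNAs that rose in total mRNA, Meg3 changed by -1.26 ± 0.38 there and Snhg11 by -0.67 ± 0.41 (interactions -4.17 and -5.31, adjusted p = 0.000695 and 0.006). Immediate early genes went the other way, with Egr1 at 2.38 ± 0.60 and Ier2 at 3.44 ± 0.56 in ribosome-bound mRNA (interactions 4.92 and 5.89, adjusted p = 0.000973 and 7.74e-05). Sorted cells were dissociated and the NSC homogenates were not, while for the Neuron immunoprecipitates the labels conflict. Immunoprecipitates can hold background RNA of the tissue: the synaptic vesicle genes summed to 24416 to 26108 CPM in the Neuron immunoprecipitates and to 21745 to 28277 CPM in the bulb controls. On the stem cell side they summed to 11399 to 14005 CPM in the NSC immunoprecipitates. In the subventricular controls without the HA tag the sum was 15230 to 21245 CPM. In NSC total mRNA, scaled separately, it was 1931 to 3583 CPM. The part of handling or background in these differences was not tested.

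**Figure D5:**
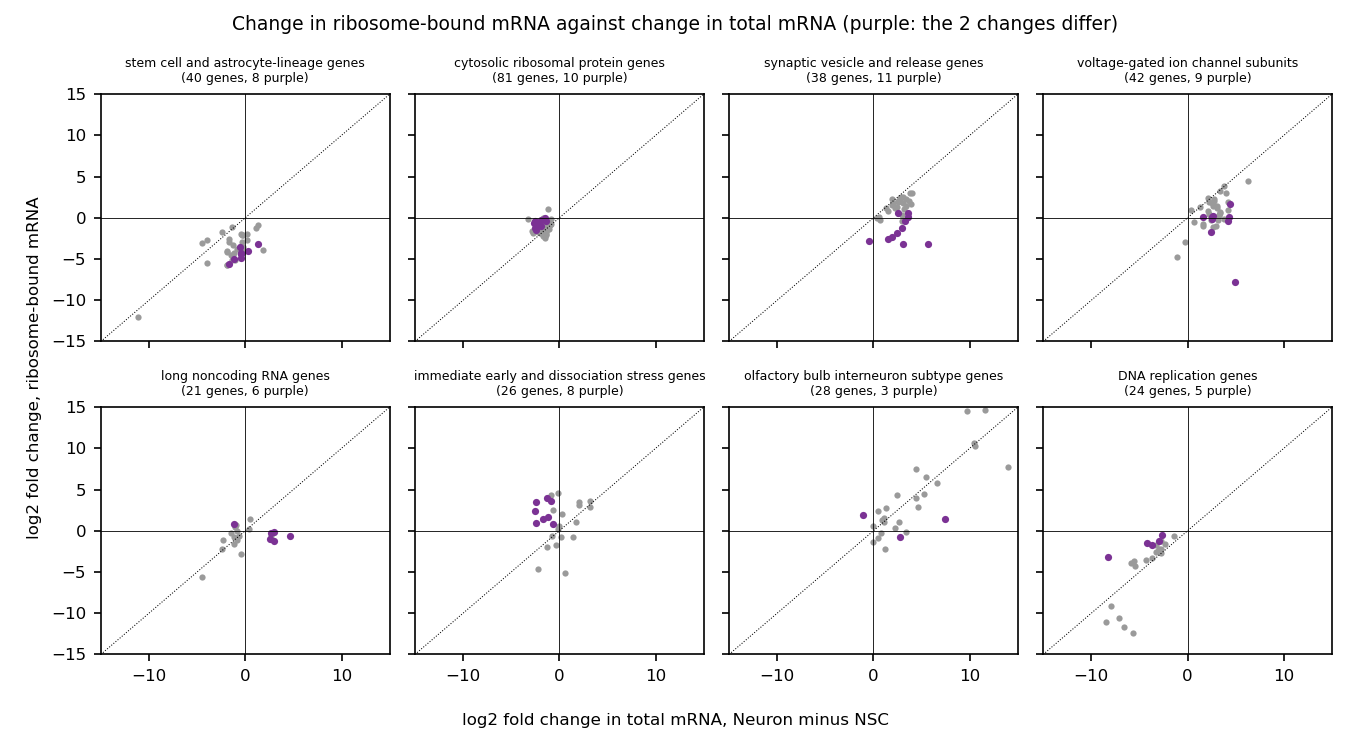
Change in ribosome-bound mRNA (vertical axes, log2, Neuron minus NSC) against change in total mRNA (horizontal axes, log2) for the genes of 8 lists tested in both; the dotted line is equality, and purple genes differ by the interaction (adjusted p under 0.05). Most stem cell and astrocyte-lineage genes lie below the line, most synaptic and channel genes lie to the right of 0 and below the line, and ribosomal protein genes lie in the lower left with 10 purple genes above the line.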

How the data were processed

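NSC and Neuron, sorted per the labels, with 3 libraries each, were compared in total mRNA. The deposited tables hold raw counts, expected counts and TPM for 45195 genes in 27 libraries. Per the submitters' processing notes RSEM 1.2.21, Bowtie2 2.2.6 and GRCm38 were used; the expected counts and TPM the authors deposited are of the kind RSEM gives, and the tool behind the raw counts is not given in the sources used here. Strand is not marked by the library protocol, so overlapping antisense genes cannot be told apart.

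From the deposited counts, edgeR 4.0.16 (R 4.3.3; TMM, filterByExpr, quasi-likelihood F test, Benjamini-Hochberg, adjusted p under 0.05) was fitted to the 12 total mRNA libraries of the 4 stages, to 15 immunoprecipitates, and to 21 libraries for the interaction. SE is the absolute log2 change over the square root of F. Pair ratios are log2 of TPM + 0.5. A bound against a group without counts takes 3 counts over that group, and counting intervals (95%) cover counting error only. Depth was 5225929 to 15005452 counts per library. Alternatives used limma 3.58.1, DESeq2 1.42.0, RLE scaling, no filter, expected counts rounded to whole numbers, TPM with a pseudocount of 1, an index term and leaving out each library. Code was tested on simulated data.

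The members, the 37 lists and the 46 pairs were chosen with earlier results of these data known. Named genes are the markers and Cre drivers, up to 6 called genes per list by smallest p whose groups do not overlap, described pairs by size of ratio change, and the 10 highest and 10 lowest changes among called protein-coding genes without overlap and with a mean of at least 20 CPM in the higher group. Other named genes were chosen after their values were seen: Nuf2, Rpl24, Apoe, Gfap, Aqp4, Snap25, Eif4a2, Eif4g3, Eif5a2, Zic1, Wif1, the endothelial markers at 0, and the pairs that were not described in order of size. Some genes that the rule would name are not reported here. 56 symbols are shared by several entries. 33576 of the entries matched RefSeq (GRCm38.p6).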

Additional observations from a re-analysis of the deposited data

Results flagged for a closer look

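The 63 results below are genes that the text, the rule for named genes or the pairs pick out, some of them printed only here, for which the change between NSC and Neuron differed between ribosome-bound and total mRNA, by the interaction in edgeR's quasi-likelihood test (adjusted p under 0.05, beside 5.85% of all genes tested). Many of them were picked by a small p in total mRNA, and the interaction subtracts that same change. This choice favours an interaction of the opposite sign, so the share over all genes is no like comparison for them. The values in brackets are the change in ribosome-bound mRNA minus the change in total mRNA on the log2 scale, so that a negative value means that Neuron stood lower relative to NSC in ribosome-bound mRNA. The 2 measurements came from different animals, and for NSC from different tissue handling, while the labels of the Neuron immunoprecipitates conflict on theirs; the difference covers all of this. For genes without counts in a group the fitted difference depends on the prior count and is no bound.

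Among stem cell, astrocyte-lineage and signalling genes the differences were Apoe (-3.857), Gfap (-4.199), Aqp4 (-4.473), Ndrg2 (-2.277), S100b (-5.189), Id4 (-3.595), Notch1 (-2.224), Sfrp1 (3.001), Jag1 (2.718) and Dll1 (3.787). Astrocyte genes all had negative values, while the ligands Jag1 and Dll1 and the Wnt modulator Sfrp1 had positive ones. Among progenitor and cell cycle genes they were Dlx2 (3.229), Btg2 (3.417), Sox11 (3.204), Rfc4 (2.735), Cdt1 (5.111), Lig1 (1.943), Sgo2a (9.964), E2f7 (8.391), Kifc1 (7.581), Dnmt1 (2.168), Msi1 (1.887) and Hmgb1 (1.489). All are positive, which means a less negative or a positive change in ribosome-bound mRNA.

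Not all neuronal genes differed: Gad1 and Th, described above, had positive interactions that were not past the threshold. The genes in the groups below, picked by the interaction, had negative values. For synaptic and adhesion genes they were Celf4 (-1.431), Robo2 (-1.812), Pclo (-3.61), Dlg2 (-3.674), Ank3 (-3.378), Cntnap2 (-2.944), Ppp3ca (-2.272), L1cam (-3.677) and Tubb4a (-2.588). For receptors, channels and transporters they were Gria2 (-1.832), Gria4 (-2.222), Grik3 (-1.717), Cacna1e (-4.095), Kcnd2 (-2.679) and Slc12a7 (-5.967), the last of which fell in total mRNA. For genes of oligodendrocyte precursors, matrix and bulb cells they were Lhfpl3 (-3.384), Cacng4 (-4.243), C1ql1 (-4.531), Matn4 (-6.704), Reln (-5.882), Cdhr1 (-6.535), Grem1 (-7.944), Thsd7b (-9.864) and Abi3bp (-7.685).

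Genes of the translation machinery and of complex I had positive values, at Rplp0 (0.95), Rpl32 (1.371), Rps27l (2.073), Eif2s2 (1.231), Eif4a1 (1.709), Eif5a (1.223), Ndufc2 (1.731) and Ndufa2 (1.125), and the mTOR inhibitor Deptor a negative one (-2.695). Immediate early genes had positive values, at Egr1 (4.925), Ier2 (5.889), Dusp1 (2.844) and Jun (3.224), and long noncoding RNAs negative ones, at Meg3 (-4.169), Rian (-3.47), Snhg11 (-5.313) and Kcnq1ot1 (-3.044).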

How the results depend on the processing

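Against 4175 genes past the threshold in total mRNA, a test against a fold change of 2 called 1737, and leaving out 1 library called 2605 (without NSC 2) to 3684 (without Neuron 3). RLE scaling gave 4156, DESeq2 5539, no filter on low counts 3701, only the 6 libraries compared 3971, the second index as a term 3234, expected counts 3679 and limma on log2 TPM 4761. In ribosome-bound mRNA 5092 genes became 2662 with only the libraries compared. For the interaction, 1164 became 2485 with DESeq2, 578 with only the libraries compared, and 277 to 1543 with 1 library left out. The replicate numbers do not pair the samples: correlations of deviations within a number were 0.016, 0.02 and 0.053, not every library correlated best with its own number, and the replicate block gave 3632, 4700 and 1050 genes. The median of the microglia markers, 2.63, was 0.0 without Neuron 3 and 5.15 without NSC 3. It was 0.44 with limma on log2 TPM, 0.13 with only the libraries compared and 0.62 within the shared index. The causes of these shifts were not tested. No named gene that was past the threshold in the main fit or in an alternative changed its direction between them. For genes past it in neither, a change of direction was not counted. In a gene's single comparisons with an alternative, 3167 kept their side of the threshold, 112 lost the call and 14 gained one. The comparison within the shared index has no test, and there the direction of called genes was taken. Among the 6 libraries Neuron 3 is the shallowest, at 5225929 counts, and depth limits the low genes most. With the second index as a term 5 in place of 10 fatty acid oxidation genes, 2 in place of 8 cholesterol and fatty acid synthesis genes and 1 in place of 4 ependymal markers fell.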

Other observations

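Lysosome genes, not described above, passed the threshold no more often than all genes (11.0% higher and 12.8% lower): 3 of 30 rose and 3 fell, with a median of 0.35, and 1 fell without any one library except Neuron 2. Atp6ap2, an accessory subunit of the vacuolar proton pump, was at 115, 90.7 and 160 CPM in NSC and at 393, 642 and 871 CPM in Neuron (2.38 ± 0.36, adjusted p = 0.000706 by edgeR's quasi-likelihood test). The membrane protein Laptm4b was at 40.7, 41 and 81.4 CPM in NSC and at 269, 223 and 312 CPM in Neuron (2.30 ± 0.37, adjusted p = 0.00105). The groups did not overlap for either gene.

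Markers of olfactory ensheathing cells and sensory axons summed to 355 to 1965 CPM in NSC and 2427 to 5593 CPM in Neuron. Of 11 tested 3 were higher (6 without NSC 3), beside 11.0% of all genes. In the separately scaled bulb controls the list summed to 3344 to 4619 CPM. Markers of striatal projection neurons, cells next to the subventricular zone, summed to 203 to 240 CPM in NSC and 361 to 626 CPM in Neuron. Of 12 tested 2 were higher (4 without NSC 3, and 1 without NSC 1, NSC 2 or Neuron 2), beside 11.0% of all genes. For mural cells and fibroblasts 1 of 5 rose and 1 fell, beside 11.0% and 12.8% of all genes. The fall was not past the threshold without Neuron 1, Neuron 2, Neuron 3 or NSC 2.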
